A study of Rattus norvegicus with 4 samples.

Results

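Transcripts of the proteasome, the complex that degrades ubiquitin-tagged proteins, were compared in the adrenal medulla of rats immobilized for 2 h and of unstressed rats. A gene was taken as a member when its symbol began with Psm, a letter from a to g and a number, and when a probe set, the group of short probes that reports on a transcript, was annotated to that gene only. Psmb8 and Psmb9 were left out. This gave 44 genes of the 14217 that have such a probe set, on 58 probe sets, and the probe set with the highest mean signal stood for each gene. Of the 44, 14 encode core particle subunits (Psma and Psmb). Another 28 encode subunits of the regulatory particle, activators, an inhibitor or assembly chaperones (Psmc to Psmg). The remaining 2, Psmc3ip and Psme3ip1, share only the first letters of the symbol and are described apart. Psmb6 and Psme3 had only probe sets that also name other genes and are therefore not members.

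The core particle is a barrel of stacked rings of alpha and beta subunits, with the protein-cutting sites on beta subunits inside it. The regulatory particle caps the barrel. Its base holds a ring of ATPases that unfold substrates, and its lid removes ubiquitin chains. Both particles are put together by dedicated chaperones that are not part of the finished proteasome. In mammalian cells with too little proteasome activity, the transcription factor Nrf1, encoded by Nfe2l1, raises the subunit genes together.

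Total RNA of Rattus norvegicus adrenal medulla was hybridised to 4 single-colour oligonucleotide arrays, 2 from rats immobilized for 2 h and 2 from unstressed rats. Strain, sex and age, the number of rats behind an array and the interval between immobilization and dissection are not given in the sources used here. The p-values therefore measure the spread between these arrays, which may be technical, and the number of arrays limits every precision. In whole tissue, fewer cells of a type and less RNA per cell cannot be told apart.

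The deposited intensities had equal trimmed means on the 4 arrays, but their bright ends differed: 1% of probe sets read above 36447 and 30549 on the immobilized arrays, against 30002 and 31739 on the unstressed ones. The Actb control probe set at the 3′ end read 58405 and 44279 against 46021 and 50315, and that of Gapdh 51495 and 42070 against 49602 and 50730. Th, the rate-limiting enzyme of catecholamine synthesis, read 68379 and 44651 against 54049 and 55633. Fos, an immediate early gene, read 12288 and 14407 on the immobilized arrays against 574 and 291 on the unstressed arrays. The 8 chromaffin cell markers with a probe set were all bright, with summed intensities of 396794 and 283252 on the immobilized arrays and 325758 and 296569 on the unstressed arrays. So were the 6 adrenal cortex markers, at 276701 and 207638 against 257132 and 292082, so the labelled medulla held cortical RNA as well. None of the chromaffin markers and 1 of the cortex markers passed the test: Nr5a1, which drives steroid hormone genes, had a log2 change of 0.47 and so rose. The cortex list leaned the other way, with 4 of 6 markers negative, 2 positive and a median of -0.26. S100b, a marker of sustentacular and Schwann cells, fell by 0.59, Gfap rose by 1.76 and the endothelial Kdr fell by 0.79. Kdr was the only 1 of 5 tested endothelial markers that passed. Of these 5, 3 had positive and 2 negative changes, with a median of 0.14. Among the other marker lists, 0 of 6 tested macrophage and lymphocyte, 0 of 2 erythroid and 0 of 6 fibroblast genes passed. The part of these differences in the results below was not tested.

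Changes were tested with limma on log2(intensity + 16) over 18625 probe sets above a level of about 543.8, and a gene was called at a Benjamini-Hochberg adjusted p under 0.05. By gene, with 1 probe set each, 11.2% of 10320 tested genes were called higher in immobilized rats and 21.8% were called lower, 33.0% in all. All 44 members lay above that level, and every reading of the probe sets that stand for them, the lowest being 999, exceeded the highest reading of the Bacillus control probe sets, 256.6.

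Of the 14 core genes, 0 were called in either direction, against that background of 33.0%, and their median log2 change was -0.07 (immobilized minus unstressed), against -0.14 over all tested genes. Of the 17 genes for structural subunits of the regulatory particle, 0 were called either, with a median of -0.07. The exceptions among the proteasome genes were chaperones: Psmg3, Psmd5, Psmd10 and Psmg1 fell, and 0 members rose. Taken as 1 group, the 28 regulatory and chaperone genes had 4 called lower (14.3%), with a median of -0.09. By symbol, Psmd5 and Psmd10 belong to the 14 Psmd genes, of which 2 (14.3%) were called lower. Among all 44 members, 6 (13.6%) were called lower, against 21.8% of all tested genes. At an unadjusted p under 0.05 there were 2 core genes and 1 structural regulatory gene, against 4627 of the 10320 tested genes. After quantile normalization, which removes the difference between arrays at the bright end, 5 core genes (Psma2, Psma4, Psma6, Psmb1 and Psmb5) and the regulatory subunit gene Psmd6 were called lower, 6 of the 31 structural genes, where 20.3% of all genes were called lower under that scaling.

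**Figure D1:**
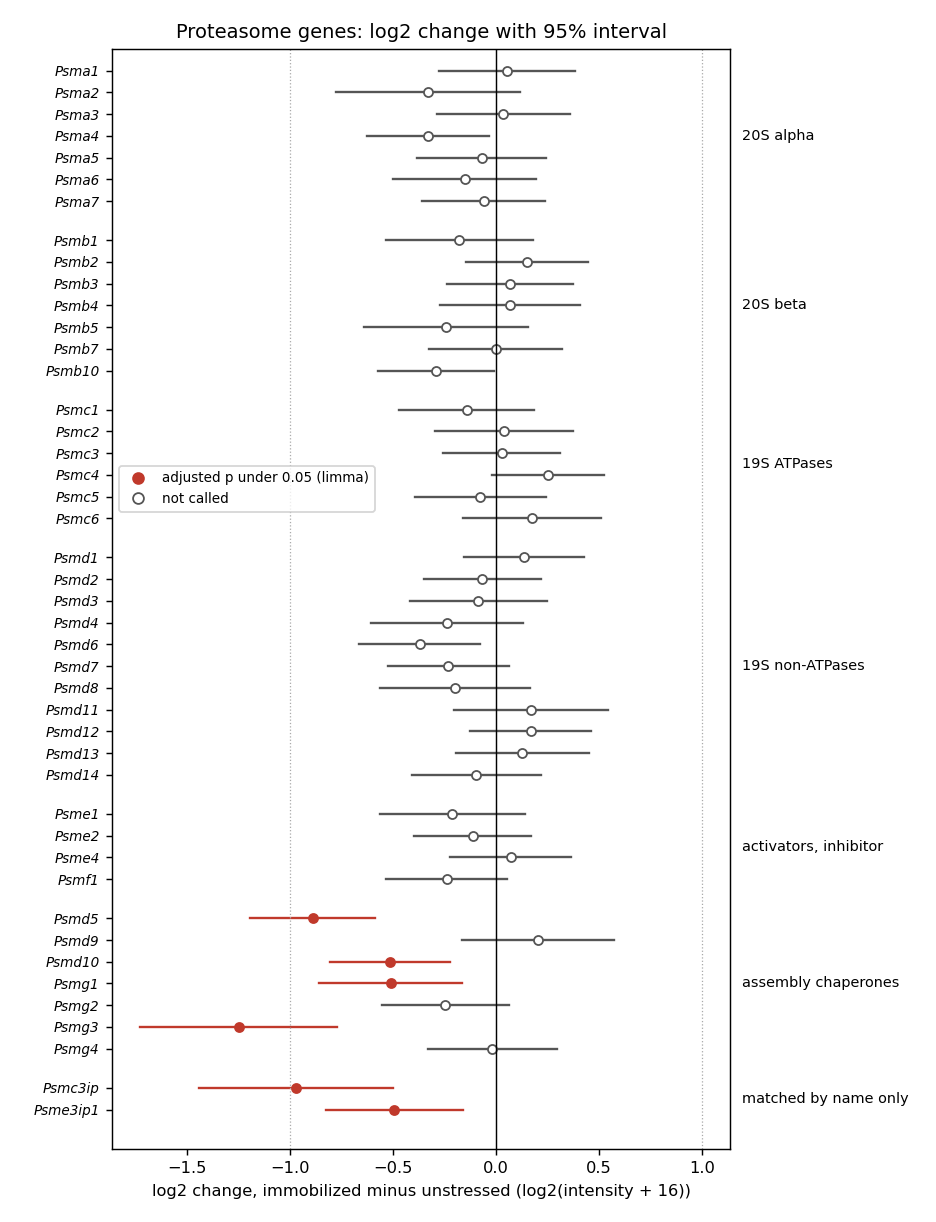
Log2 change of the 44 genes, immobilized minus unstressed, on the log2(intensity + 16) scale (x axis), with 95% intervals of the moderated limma fit, 2 arrays per group. Filled red points are the 6 genes with an adjusted p under 0.05, which lie among the assembly chaperones and the genes matched by name only, while the core and structural regulatory genes lie between -0.37 and 0.25.

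The alpha subunits form the outer rings of the core and the gate through which substrates enter. The log2 changes of their 7 genes ran from -0.33 to 0.06. Psma4 had intensities of 10982 and 11140 in immobilized rats against 13054 and 14822 in unstressed rats. Both immobilized arrays read lower and the groups did not overlap, with a log2 change of -0.33 ± 0.12 (SE, n = 2 per group) and a limma adjusted p of 0.0862. Psma2 read 22406 and 19087 in immobilized rats against 21996 and 30685 in unstressed rats. Its groups overlapped, since unstressed 1 lay between the immobilized arrays, and its change of -0.33 ± 0.19 had a limma adjusted p of 0.227. Psma6 read 29605 and 26279 against 28674 and 33526 in unstressed rats, and Psma3 read 4424 and 4031 against 4263 and 3984. The groups overlapped for both genes, whose log2 changes were -0.15 and 0.04. Psma1, Psma5 and Psma7 had changes of 0.06, -0.07 and -0.06.

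Among the beta subunits, Psmb5, Psmb6 and Psmb7 carry the cutting sites of the standard proteasome. Psmb5, the chymotrypsin-like subunit, read 25135 and 18699 in immobilized rats against 25124 and 26255 in unstressed rats. Immobilized 2 alone was low, and the log2 change was -0.24 ± 0.17, with an interval of -0.64 to 0.16. Psmb7, the trypsin-like subunit, read 20759 and 21278 in immobilized rats against 19351 and 22896 in unstressed rats. Its immobilized readings lay between the unstressed ones, with a change of -0.002 and an interval of -0.33 to 0.32. The probe set that names Psmb6 together with Psmb6l1, outside the members, read 14325 and 13842 in immobilized rats against 12963 and 14052 in unstressed rats, a log2 change of 0.06 ± 0.12. Of the subunits without a cutting site, Psmb2 read 23416 and 21799 against 19755 and 20959 in unstressed rats. Both immobilized arrays read higher, but the change of 0.15 ± 0.13 had a limma adjusted p of 0.396. Psmb4, another such subunit, read 33830 and 29358 against 28751 and 31489 in unstressed rats, and its groups overlapped. Psmb1, Psmb3 and Psmb4 had log2 changes of -0.18, 0.07 and 0.07.

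Psmb10 encodes the interferon-inducible subunit that takes the place of Psmb7 in the immunoproteasome, the form of the core that favours peptides for antigen presentation. It read 6895 and 7432 in immobilized rats against 8652 and 8869 in unstressed rats. The groups did not overlap, and the log2 change of -0.29 ± 0.12 had a limma adjusted p of 0.108. The other immunoproteasome subunits, which are not members, also read lower on both immobilized arrays. Psmb8, the counterpart of Psmb5, read 18490 and 16872 against 23159 and 26943 in unstressed rats, and fell by 0.50 on the log2 scale (SE 0.14, limma adjusted p 0.0336). Its call was lost with either immobilized array left out, without unstressed 2, after median centring, without the filter and without the intensity trend. Psmb9, the counterpart of Psmb6, read 13232 and 15453 against 16979 and 19171, a change of -0.34 ± 0.14 (adjusted p 0.111). Of the 11 tested genes of immunoproteasome and antigen processing, 0 rose and 3 fell, with a median of -0.29, against 21.8% of all tested genes called lower. The largest fall was that of Irf1, a transcription factor that activates these genes, by 1.40 on the log2 scale, at 4519 and 5116 in immobilized rats against 13043 and 12369 in unstressed rats. Tap1, a subunit of the peptide transporter, also fell, at 2194 and 2044 against 3336 and 3022 in unstressed rats, a change of -0.58 ± 0.16. Its call was lost with unstressed 1 or either immobilized array left out and under both other scalings, and with the mean of its probe sets the change was -0.10.

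The ATPases of the base, Psmc1 to Psmc6, had log2 changes from -0.14 to 0.25 and a median of 0.03. Psmc4 read 11610 and 11629 in immobilized rats against 9573 and 9917 in unstressed rats. Both immobilized arrays read higher, at a change of 0.25 ± 0.11 and a limma adjusted p of 0.138. Psmc1 read 11223 and 10287 against 10847 and 12983 in unstressed rats, and Psmc2 read 26761 and 22940 against 22934 and 25416. The groups of both overlapped, as did those of Psmc3 and Psmc5. Psmc6 read 5366 and 5917 in immobilized rats against 4612 and 5394 in unstressed rats, a log2 change of 0.18 ± 0.14. Its probe sets disagreed: another read 4900 and 5608 against 3816 and 3703 and rose by 0.48 (limma adjusted p 0.0389), while the last had a change of -0.02. Over all tested probe sets, 11.7% were called higher and 19.4% lower.

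The 11 structural non-ATPase genes, for the scaffold, the ubiquitin receptor Psmd4 and the lid, had changes from -0.37 to 0.17. Psmd6, a lid subunit, read 12532 and 12035 in immobilized rats against 15001 and 16847 in unstressed rats. Both immobilized arrays were lower, at -0.37 ± 0.12 and a limma adjusted p of 0.0613, which passed with the filter at the 60th percentile. Psmd4 read 6782 and 6411 against 6847 and 8842 in unstressed rats, where unstressed 1 lay just above the immobilized arrays. Its change of -0.24 ± 0.16 was called only without unstressed 1, at -0.42 (limma adjusted p 0.0489). Psmd14, the lid enzyme that cuts ubiquitin chains off substrates, read 8000 and 7782 against 7768 and 9152, and its groups overlapped, with a change of -0.10 ± 0.13. Psmd2, a scaffold subunit of the base, read 17772 and 17023 against 17735 and 18710, a change of -0.07 ± 0.12. Psmd11 and Psmd12, both of the lid, had the highest change of these genes, 0.17 each, and a second probe set of Psmd11 had -0.13.

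Activators can cap the core in place of the regulatory particle, and 0 of the 3 measured genes were called. Psme1 read 35735 and 29719 in immobilized rats against 36950 and 38578 in unstressed rats, a log2 change of -0.21 ± 0.15, and a second probe set, at 1005 and 843 against 700 and 539, had 0.57. Psme2, which forms an interferon-inducible ring with Psme1, read 20810 and 20568 against 22352 and 22397, a change of -0.11 ± 0.12. Both were called lower after quantile normalization, at -0.29 and -0.27. Psme4, a large nuclear activator, read 6584 and 6736 against 6040 and 6662 in unstressed rats, a change of 0.07 ± 0.12. Its 3 tested probe sets disagreed, since one read 3513 and 3406 against 5023 and 6391 and fell by 0.71 (limma adjusted p 0.0164). Psmf1, an inhibitor of the core, read 5469 and 5963 against 6774 and 6731, so both immobilized arrays were lower, at -0.24 ± 0.12 and a limma adjusted p of 0.181. The probe sets that name Psme3 also name Aoc3 and G6pc1. The brightest read 7366 and 7463 in immobilized rats against 5796 and 7212 in unstressed rats, with a change of 0.20 ± 0.14.

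Of the 7 assembly chaperone genes, 4 fell and 0 rose, where 21.8% of all tested genes were called lower and 11.2% higher, and their median log2 change was -0.51. This group was not among the planned classes and was formed with earlier results known. By the planned classes, 2 of 14 Psmd genes (14.3%) and 2 of 4 Psmg genes (50%) were called lower. Pomp, a core assembly factor whose symbol keeps it out of the members, had a change of -0.12 ± 0.15 (limma adjusted p 0.586). Psmg1 to Psmg4 encode chaperones of the core, which in human cells work as a pair of Psmg1 with Psmg2 and a pair of Psmg3 with Psmg4 on the ring of alpha subunits. Psmg3 read 1859 and 1350 in immobilized rats against 3642 and 3946 in unstressed rats. The groups lay far apart, and the gene fell by 1.25 on the log2 scale (SE 0.20, 2.38-fold lower, limma adjusted p 0.00516). Psmg4, its partner, read 11923 and 10800 against 12305 and 10735, and its groups overlapped, with a change of -0.02 ± 0.13. Psmg1 read 6608 and 6054 in immobilized rats against 10033 and 8122 in unstressed rats. Both immobilized arrays were lower, and the gene fell by 0.51 (SE 0.15, 1.43-fold lower, limma adjusted p 0.0376). Psmg2, its partner, read 4173 and 4115 against 4737 and 5107, also without overlap, and its change of -0.25 ± 0.13 had a limma adjusted p of 0.193. Whether partners differ in their change was not tested.

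Psmd5, Psmd9 and Psmd10 carry the names of regulatory subunits but encode chaperones that hold ATPases during assembly of the base and leave before the particle is complete. Psmd5 read 7047 and 6459 in immobilized rats against 11805 and 13303 in unstressed rats. The immobilized arrays were well below both unstressed ones, and the gene fell by 0.89 (SE 0.13, 1.86-fold lower, limma adjusted p 0.00344). It was called under all 14 alternatives run, with log2 changes from -0.98 to -0.75. Psmd10, also known as gankyrin, read 8449 and 7548 in immobilized rats against 11168 and 11680 in unstressed rats. The groups did not overlap, and the gene fell by 0.52 (SE 0.12, 1.43-fold lower, limma adjusted p 0.021). Psmd9 went the other way: it read 2959 and 3156 against 2505 and 2812, a change of 0.20 ± 0.16 with a limma adjusted p of 0.362. Another probe set of Psmd9, too dim to be tested, read 408 and 393 in immobilized rats against 507 and 591, a change of -0.44. Without immobilized 1 the calls on Psmd10 and Psmg1 were lost, and without immobilized 2 only Psmd5 was called, with Psmg3 at an adjusted p of 0.0532 (log2 change -1.02). With those arrays left out, 7.03% and 5.78% of all genes were called lower. The calls on Psmd10 and Psmg1 were also lost after median centring and without the intensity trend, and that on Psmg1 without the filter or unstressed 1.

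**Figure D2:**
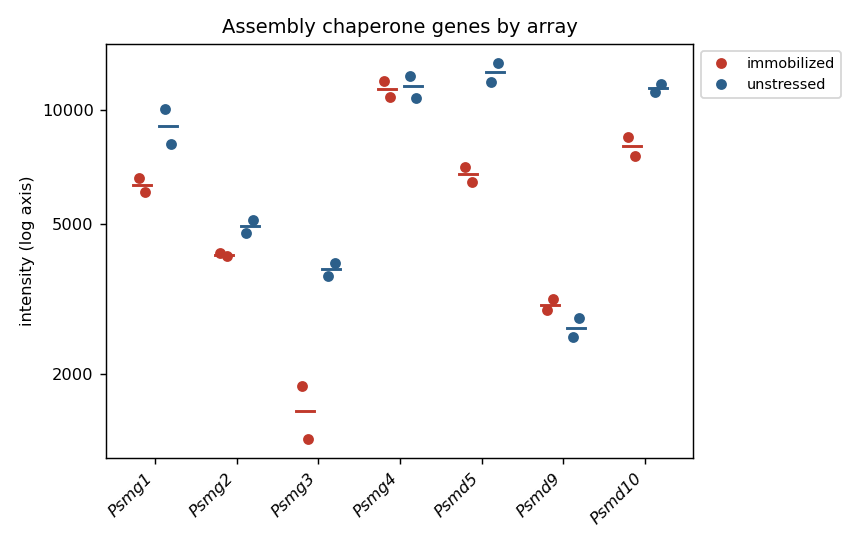
Intensity on each array (log axis) of the 7 assembly chaperone genes, immobilized in red and unstressed in blue, with a bar at each group's mean (n = 2). Psmg3, Psmd5, Psmd10 and Psmg1 have both immobilized points below both unstressed ones, Psmg4 overlaps and Psmd9 lies higher in immobilized rats.

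The promoter sequences of the called chaperone genes are shown beside those of 2 core genes that were not called. Motifs known for subunit genes were looked for in both. The 2 core genes are examples and do not stand for the core as a whole. RefSeq promoters of the GRCr8 assembly, 250 bases before to 50 after the listed gene start, were matched by gene identifier to 40 of the 44 genes. Printed are the 250 bases before the start, 5′ to 3′ on the gene's strand. Capitals mark every match, on either strand, to TGACNNNGC (the core of the antioxidant response element that Nrf1 recognises), TGACG (contained in the cAMP response element), CCAAT or CCGGAAG (a site of ETS factors). Matches can overlap. The window listed for Psmd5 lies inside the gene's listed span and is not printed. The windows are Psmg3 at chr12:19923038-19923287 (plus strand), Psmd10 at chrX:109453606-109453855 (minus), Psmg1 at chr11:48755041-48755290 (minus), Psmb5 at chr15:32047380-32047629 (minus) and Psmb2 at chr5:144254808-144255057 (plus).
Psmg3: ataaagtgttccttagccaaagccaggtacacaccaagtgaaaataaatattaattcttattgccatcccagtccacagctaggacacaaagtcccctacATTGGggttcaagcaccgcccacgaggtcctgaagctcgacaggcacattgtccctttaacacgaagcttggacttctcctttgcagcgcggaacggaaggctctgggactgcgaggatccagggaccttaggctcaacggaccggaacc
Psmd10: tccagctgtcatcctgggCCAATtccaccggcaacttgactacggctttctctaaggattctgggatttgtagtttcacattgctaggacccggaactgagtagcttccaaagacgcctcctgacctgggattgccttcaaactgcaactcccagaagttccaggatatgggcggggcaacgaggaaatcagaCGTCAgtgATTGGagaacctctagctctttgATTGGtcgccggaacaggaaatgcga
Psmg1: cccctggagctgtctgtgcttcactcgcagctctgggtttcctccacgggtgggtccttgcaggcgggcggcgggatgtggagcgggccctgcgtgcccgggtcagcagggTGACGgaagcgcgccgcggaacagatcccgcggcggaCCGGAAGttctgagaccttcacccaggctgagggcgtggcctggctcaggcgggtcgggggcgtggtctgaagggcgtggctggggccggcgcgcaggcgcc
Psmb5: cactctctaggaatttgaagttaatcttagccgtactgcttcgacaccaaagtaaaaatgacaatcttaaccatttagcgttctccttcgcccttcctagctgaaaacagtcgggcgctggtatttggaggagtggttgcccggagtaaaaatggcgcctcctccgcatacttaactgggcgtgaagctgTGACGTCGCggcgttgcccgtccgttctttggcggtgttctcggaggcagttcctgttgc
Psmb2: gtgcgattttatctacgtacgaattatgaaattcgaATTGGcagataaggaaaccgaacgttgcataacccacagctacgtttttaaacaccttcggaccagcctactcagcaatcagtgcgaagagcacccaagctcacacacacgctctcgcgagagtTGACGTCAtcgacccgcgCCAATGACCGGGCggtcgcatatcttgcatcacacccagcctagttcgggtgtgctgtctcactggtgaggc

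Over the full windows of 300 bases, TGACNNNGC was found in 5 of 27 structural subunit genes, among them Psmb5 and Psmb2, and in 1 of 7 chaperone genes, Psmd9, against 12.2% of the 27457 promoters in the table. Of the 13 core genes with a window, only 3 held TGACNNNGC: Psma3, Psmb2 and Psmb5. Both printed core windows are thus among these 3, and they show no general contrast between core and chaperone genes. The 7 chaperone genes include Psmd5, whose window inside the gene held none of these motifs and bears on no promoter. CCGGAAG was in 10 of 27 structural genes and in 2 of 7 chaperone genes, Psmg1 and Psmg3, where it runs across the start, against 9.22% of all promoters. CCAAT was in 14 of 27 and 3 of 7, against 37.7%, and TGACG in 9 of 27 and 3 of 7, against 22.0%. The whole cAMP response element TGACGTCA, in 1.91% of all promoters, was in Psmb2 alone. TGACGCA was in Psmd1 only, against 2.09%. GAANNTTC, a unit of heat shock elements, was in Psmd1 and Psmc3, against 8.34%. The palindromic motif of nuclear respiratory factor, a different protein from Nrf1, was in Psma2, against 0.932%. These are matches of letters in these windows, not sites shown to be bound.

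Of the 31 core and structural regulatory genes, 26 had a 95% interval of the change that lay within 1.5-fold in both directions, as had 2678 of the 10320 tested genes and 963 of the 1804 genes with a mean intensity of at least 10000. In that bright set 18.1% of genes were called higher and 9.20% lower. The groups did not overlap for 10 of the 31 structural genes, 4 higher and 6 lower, and for 6 of the 7 chaperone genes, 1 higher and 5 lower, where over all tested genes 24.1% were apart and higher and 45.6% apart and lower, 69.7% in all. Relative to each gene's mean over the arrays, the median core gene stood at 0.02 and -0.10 on the immobilized arrays and at -0.04 and 0.12 on the unstressed arrays. Immobilized 1 read above immobilized 2 for 11 of 14 core genes, and unstressed 1 read below unstressed 2 for 11. The bright genes as a whole leaned the same way, with 1208 and 1163 of 1804. The CCT chaperonin, another bright complex of many subunits, also had 0 of 8 genes called, with a median of 0.07; its largest changes were 0.31 ± 0.13 for Cct3, at 17460 and 16953 in immobilized rats against 12924 and 15002 in unstressed rats, and 0.12 ± 0.12 for Cct6a, at 13464 and 12542 against 11605 and 12265. Of 19 tested subunits of the COP9 signalosome and eIF3, complexes related in build to the lid, 1 rose and 2 fell (5.26% and 10.5%). Over all tested genes 11.2% were called higher and 21.8% lower. The pooled median was -0.03, but the complexes leaned apart. Most COP9 subunits had negative changes, among them both falls, and most eIF3 subunits had positive changes, among them the rise. Eif3b read 18900 and 18820 in immobilized rats against 13866 and 12698 in unstressed rats and rose by 0.51 (SE 0.12, limma adjusted p 0.0205). Cops5, which removes NEDD8 from ubiquitin ligases, read 5001 and 4270 against 7858 and 8950 and fell by 0.86 (SE 0.14, limma adjusted p 0.00579). Cops8 read 7863 and 7693 against 10203 and 9921 and fell by 0.37 (SE 0.12, limma adjusted p 0.049). Of these calls, 0 held without immobilized 2.

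**Figure D3:**
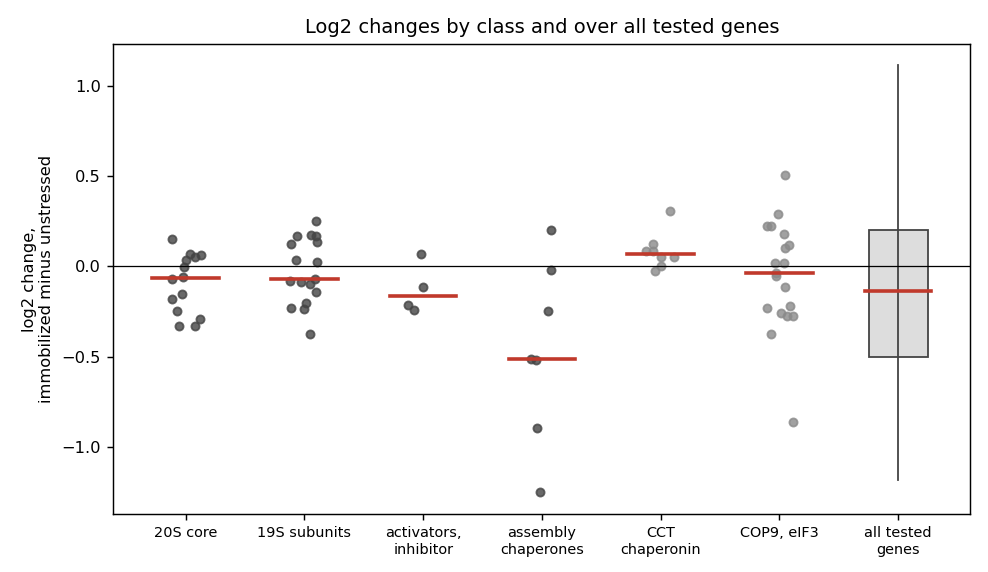
Log2 change, immobilized minus unstressed (y axis), of each gene (points) by class, with red bars at the medians. The box for all 10320 tested genes spans the quartiles, -0.50 to 0.20, and its line all but the outermost 5% at each end, -1.18 to 1.11; the core and regulatory subunits stay within -0.37 to 0.25, and the assembly chaperones reach -1.25.

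Psmc3ip and Psme3ip1, taken in by their symbols only, both fell. Psmc3ip acts in meiotic recombination and is not a proteasome part. It read 999 and 1077 in immobilized rats against 2209 and 1901 in unstressed rats, and fell by 0.97 (SE 0.20, limma adjusted p 0.012), a call lost with either immobilized array left out (0.0862 and 0.0759). Psme3ip1, which binds the activator Psme3, read 3739 and 3669 against 4847 and 5634 and fell by 0.50 (SE 0.14, limma adjusted p 0.0368). That call was lost under 7 of 14 alternatives, with an adjusted p of up to 0.196.

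Of 15 genes of proteasome assembly and transcription, which hold the 7 chaperones, 3 rose and 6 fell, with a median of -0.25, beside 11.2% higher and 21.8% lower over all tested genes. Besides the 4 chaperones, the falls were Ngly1 and Ddi2, which encode a glycanase and a protease that turn the Nrf1 protein into its active form. Ngly1 read 4075 and 4685 in immobilized rats against 9589 and 9620 in unstressed rats. The groups lay far apart, and the gene fell by 1.13 (SE 0.13, limma adjusted p 0.00154). Ddi2 read 1798 and 2307 against 4238 and 5011, again without overlap, and fell by 1.17 (SE 0.18, adjusted p 0.00478). Ddi2 was tested in 13 of the 14 alternatives and called in 12 of them, the call being lost without immobilized 1. Nfe2l1 itself read 9463 and 8067 against 10365 and 12646 in unstressed rats, a change of -0.39 ± 0.15 (adjusted p 0.0939). Vcp, the ATPase that extracts Nrf1 from the endoplasmic reticulum, and Pomp, a core assembly factor, had changes of -0.07 and -0.12.

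The rises in that list were Zfand2a, Zfand5 and Akirin2. Zfand2a and Zfand5 encode zinc finger proteins that bind the proteasome, and Akirin2 brings it into the nucleus. Zfand2a, a heat shock responsive gene, read 2070 and 2152 in immobilized rats against 1076 and 1246 in unstressed rats and rose by 0.86 (SE 0.19, limma adjusted p 0.0167). Zfand5 read 31574 and 28169 against 17366 and 19631 and rose by 0.69 (SE 0.14, adjusted p 0.0109), or by 0.41 with the mean of its probe sets, which was not called. Akirin2 read 4186 and 3957 against 2239 and 3123 and rose by 0.62 (SE 0.19, adjusted p 0.0485). The call on Akirin2 was lost under 6 of 14 alternatives: with unstressed 1 or either immobilized array left out, without the filter, with a stricter one and without the trend. That on Zfand2a with either immobilized array left out and that on Zfand5 without immobilized 1.

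Of 9 factors bound to the proteasome 2 rose and 2 fell, each 22.2% of the list, beside 11.2% higher and 21.8% lower over all tested genes. Their median was 0.09, and 0 of either direction were called with either immobilized array left out. Uchl5, a deubiquitinase of the regulatory particle, read 2906 and 3034 in immobilized rats against 4592 and 5973 in unstressed rats and fell by 0.82 (SE 0.17, limma adjusted p 0.0123). Usp14, the other bound deubiquitinase of the list, read 11349 and 11112 against 11369 and 10978, a change of 0.01 ± 0.12. Adrm1, the receptor that holds Uchl5, had 0.11, and Sem1, a small lid subunit, had 0.09. Ube3c, a ligase that acts on stalled substrates, read 9145 and 10205 against 7232 and 7029 and rose by 0.44 (SE 0.12, limma adjusted p 0.0359). Ecpas, a scaffold that ties the core to the regulatory particle, read 10191 and 9869 against 7642 and 7493 and rose by 0.41 (SE 0.12, limma adjusted p 0.0371). Each was above its unstressed readings on both immobilized arrays. With the mean of its probe sets the rise of Ube3c was 1.15, and that of Ecpas was not called. Psme3ip1 was the other fall.

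**Figure D4:**
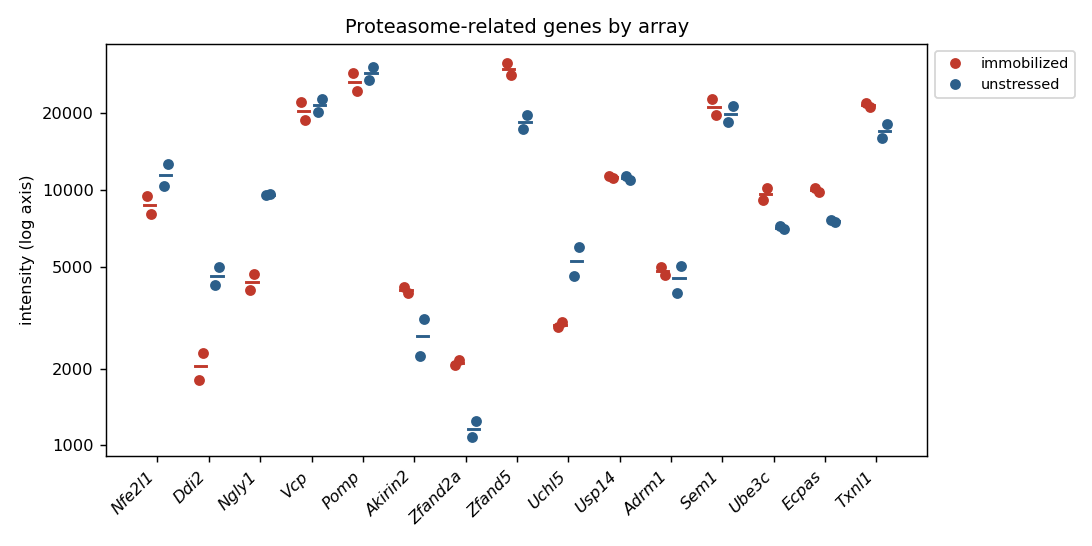
Intensity on each array (log axis) of 15 genes for proteasome regulators and bound factors, immobilized in red and unstressed in blue, with a bar at each group's mean (n = 2). Ddi2, Ngly1 and Uchl5 have both immobilized points below both unstressed ones, Zfand2a and Zfand5 above, and Usp14, Adrm1, Sem1 and Vcp overlap.

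Of 10 tested ubiquitin shuttle and extraction factors, such as Rad23b, Ubqln1 and Sqstm1, 0 were called, with a median of -0.02. Bag6, which guards misfolded proteins, read 4316 and 4744 in immobilized rats against 3453 and 3600 in unstressed rats and had the largest change, 0.36 ± 0.14. Ubqln2, a shuttle factor, read 12634 and 13467 against 17261 and 14357 and followed with -0.27 ± 0.14. Of 23 tested enzymes that activate or conjugate ubiquitin or related modifiers like SUMO, 6 rose and 3 fell, against backgrounds of 11.2% and 21.8%. Their median was 0.10. Ube2n, which builds ubiquitin chains linked through lysine 63, read 18083 and 22851 in immobilized rats against 7537 and 6913 in unstressed rats and rose by 1.49 (SE 0.15, limma adjusted p 0.00101). Ube2j1, an enzyme of the endoplasmic reticulum, read 5390 and 7755 against 2311 and 2574 and rose by 1.40 (SE 0.20, adjusted p 0.00323). Sae1, part of the enzyme that activates SUMO, read 12455 and 11505 against 5429 and 4868 and rose by 1.22 (SE 0.13, adjusted p 0.0011). The groups were far apart for all these genes. Ube2a read 5216 and 5431 against 2703 and 3455 and rose by 0.80 (SE 0.16, adjusted p 0.0119). Uba6, the alternative ubiquitin-activating enzyme, read 3289 and 3394 against 9209 and 10245 and fell by 1.54 (SE 0.13, adjusted p 0.00049). Uba1, the main activating enzyme, had a change of -0.29 (adjusted p 0.114). Ube2d1, a conjugating enzyme used by many ligases, read 1789 and 1634 against 3564 and 2687 and fell by 0.85 (SE 0.20, adjusted p 0.0187). The calls on Ube2a and Ube2d1 were lost with either immobilized array left out. Over the alternatives, the log2 change of Ube2a ran from 0.51 to 0.97 and that of Ube2d1 from -1.05 to -0.65.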

How the data were processed

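Gene expression was measured on 4 arrays, 2 per group, with the groups taken from the labels and replicates numbered in accession order. The authors deposited a linear intensity for each of 31099 probe sets on every array. Nothing in the labels states the summary method behind it. The values fit arrays scaled to an equal mean after trimming 2% at each end (2500.57 to 2500.71), and that scaling was kept. There were 0 unused columns of sample values.

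Control probe sets (57) were dropped, log2(intensity + 16) was taken, which understates fold changes of dim genes, and probe sets below percentile 40 of mean log2 level were not tested. The platform annotation gave 20826 probe sets a single gene, 436 more than 1 gene and 9780 no gene. Entrez identifiers of 20764 were found in the GRCr8 gene table, with 0 symbols changed. The test was limma 3.58.1 under R 4.3.3 (lmFit, then eBayes with an intensity trend, 6.81 degrees of freedom), two-sided. P-values were adjusted by Benjamini-Hochberg across the whole tested table. The fit was also run on simulated data with known changes, as a check of the code only. A gene without a call is not shown to be unchanged. An exact permutation test of 2 arrays against 2 cannot go below p = 0.333 and is not used.

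Members and lists were chosen with earlier results of these data known. The group of Psmd5, Psmd9 and Psmd10 with Psmg1 to Psmg4 was not among the planned classes, which followed the symbols. By rule, full values are given for called members, the 2 largest changes of a class without a call, the genes of highest and lowest signal in a class, the cutting subunits, the activators and the inhibitor, and up to 6 called genes of each list or its 2 largest changes. Nfe2l1, Vcp, Pomp, Usp14, Adrm1, Sem1, Uba1 and Psmb9 were named after their values were seen. Psmb2, Psmc1, Psmd14, Psmg2 and Akirin2 are also given in full, outside that rule. Alternatives were quantile normalization, median centring, offsets of 1 and 64, no filter, a filter at percentile 60, no trend, robust estimation, a threshold of 0.10, averaging all probe sets of a gene, and leaving out each array.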

Additional observations from a re-analysis of the deposited data

How the results depend on the processing

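The absence of a rise held under all 14 alternatives for the core, the structural regulatory and the chaperone genes. Falls depended on the scaling. After quantile normalization 5 core genes and 7 regulatory and chaperone genes were called lower, 6 of them all told structural subunits, where 20.3% of all tested genes were called lower, and the median log2 change of the core was -0.22. After median centring the core and regulatory medians were 0.074 and 0.049, and 2 regulatory genes were called lower, both of them chaperones (Psmg3 and Psmd5), so the sign of these small medians is not settled. The median change over all tested probe sets was -0.12 with the deposited scaling, -0.06 after quantile normalization and 0.02 after median centring. Without the intensity trend 2 regulatory genes, again 2 chaperones, were called lower, as were 19.2% of all tested genes. At a threshold of 0.10, 2 structural subunits were called lower, 1 of them a core gene, beside 28.2% of all tested genes. With the filter at the 60th percentile 1 structural subunit was called lower, beside 23.2% of all tested genes. With 1 array left out, the count of regulatory genes called lower was 1 to 4, the count of chaperones likewise 1 to 4, and the count of structural subunits 0 to 1. Over all tested genes 12.5% and 10.3% were called without immobilized 1 and 2, and 35.7% and 33.2% without unstressed 1 and 2. The cause of these changes was not tested. Among the lists, the bound factors had 0 to 1 rises and 0 to 2 falls with 1 array left out and 0 rises without the filter or the trend. In the assembly and transcription list 3 genes fell with either immobilized array left out, while 0 rose without the first and 1 without the second. Antigen processing had 5 falls after quantile normalization and 1 after median centring or with either immobilized array left out. The COP9 and eIF3 list had 4 falls after quantile normalization and 1 after median centring. Over all tested genes, 11.2% were called higher and 21.8% lower with the deposited scaling, and after median centring 14.6% were called higher of 29.7% called in all. Of 616 values of single members under alternatives, 584 kept their side of the threshold, 20 lost a call, 12 gained one and 0 called values changed sign. No paired analysis was possible because the labels number the samples through, with no number shared between the groups. Depth is not a measure for arrays; all members were far above the control readings.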
